A study of Danio rerio with 24 samples.

Results

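The comparison described here set zebrafish embryos given Cas13d with guides to nanog against embryos given Cas13d with guides to rfp. It took 4 of the 24 libraries of the study, 2 replicates of each group, by the name of their columns in the table of transcript abundances, and all 32520 genes of that table apart from the row of the RFP transgene. The embryos of all groups used here were transgenic and carried maternally provided RFP. The nanog-guide embryos received 200 to 250 pg of RfxCas13d mRNA and 500 to 600 pg of guide RNAs targeting nanog at the 1-cell stage. The rfp-guide embryos received the same amounts of RfxCas13d mRNA and of guide RNAs, targeting rfp. Since both groups carried the nuclease and guides, they differed by design in the target alone. Embryos injected with RfxCas13d mRNA alone and uninjected embryos, 2 libraries each, are set beside them as the libraries without guides. RNA of whole embryos was taken 6 hours after injection, and the design text calls the replicates biological.

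RfxCas13d is directed by its guide to a matching RNA and cleaves it, so that a transcript is lowered while its gene is left as it is. Nanog is a homeodomain transcription factor that the zebrafish mother loads into the egg as RNA. Together with Pou5f3 and Sox19b it switches on the first genes that the embryo transcribes itself, and it acts upstream of Mxtx2 in the yolk syncytial layer, the nuclear layer at the yolk surface that signals to the embryo above it. At the time sampled the embryo is at the start of gastrulation, when the ventral, dorsal, mesodermal and endodermal programs are being set up.

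Of 10 genes that mark the early gastrula, 9 were expressed above the minimum for testing. The keratin krt4 of the enveloping layer was at 1410 and 1729 TPM (transcript abundance per length, scaled to a fixed total per library) in the nanog-guide libraries, against 1681 and 1627 TPM in the rfp-guide libraries. The mesodermal gene tbxta was at 330 and 497 TPM with nanog guides, against 346 and 227 TPM with rfp guides. The groups overlapped for both genes. The T-box gene tbx16, another of the 9, fell with nanog guides, by a log2 change of -1.75, and was the only one of them called. Of 23 rows for genes of later organs, such as muscle, blood and pancreas, 22 were too low to be tested. The exception was mpz, a myelin gene, with 1.63 and 2.45 TPM in the nanog-guide libraries, against 7.11 and 6.57 TPM in the rfp-guide libraries, a log2 change of -1.38.

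The 4 libraries were not alike in composition. In nanog-guide replicate 1, 5 repeat-like loci held 23.2% of all TPM, against 1.62% in nanog-guide replicate 2 and 1.98% and 6.73% in the rfp-guide libraries. The nanog-guide replicates differed by a median of 0.502 on the log2(TPM + 1) scale per gene, against 0.164 between the rfp-guide replicates, and genes lay at a median of 0.491 lower in nanog-guide replicate 1 than in replicate 2. Many results are therefore given both with and without nanog-guide replicate 1. Median log2 differences of the gene lists below come from the full fit, and many moved without that library. The median of all genes tested moved too, from 0.004 to 0.24. In the hypoxia list it went from -0.22 to 0 and in the first-wave zygotic list from -0.43 to -0.19. For the yolk syncytial and endoderm list it went from -0.76 to -0.40, and for the genome activators from -0.46 to -0.22. The 13 protein-coding mitochondrial transcripts held 8.92% and 8.96% of TPM in the nanog-guide libraries, against 14.3% and 13.1% in the rfp-guide libraries and 7.07% to 10.3% in the libraries without guides. The part of these shares in the results below was not tested. TPM keeps no sequencing depth, so the depth of each library is unknown.

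The guides' own target was the first check of the labels. The nanog transcript was at 33.6 and 44.5 TPM in the nanog-guide libraries, against 598 and 715 TPM in the rfp-guide libraries. It stood at 324 and 253 TPM with RfxCas13d mRNA alone and at 194 and 172 TPM in uninjected embryos. The nanog-guide libraries were thus the lowest of the 8 and the rfp-guide libraries the highest, with no overlap between any of the groups. The nanog level with nanog guides was 5.94% of that with rfp guides, and nanog fell by 4.05 on the log2 scale (SE 0.17, limma adjusted p = 1.2e-08). In the contrasts with RfxCas13d mRNA alone, which share those 2 libraries, the log2 difference of nanog was -2.86 for nanog guides and 1.19 for rfp guides (SE 0.17 each). The direct contrast of the guide groups was therefore larger for this gene than the contrast of nanog guides with RfxCas13d mRNA alone.

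The RFP row, which was left out of all tests, served as the label check of the other group. It was at 1132 and 1493 TPM in the nanog-guide libraries, against 366 and 205 TPM in the rfp-guide libraries. With RfxCas13d mRNA alone it was at 1394 and 1491 TPM and in uninjected embryos at 1253 and 1494 TPM. Each guide set thus went with the lowest level of its own target. For RFP the nanog-guide libraries were far above the rfp-guide libraries, but replicate 1, at 1132 TPM, was below all 4 libraries without guides.

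**Figure D1:**
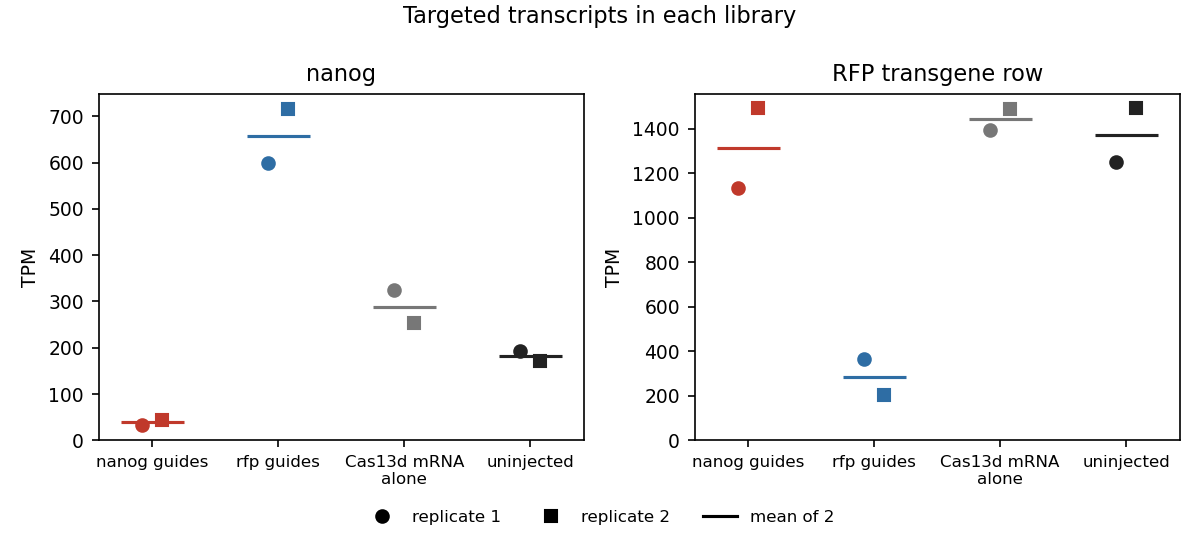
TPM of nanog (left) and of the RFP transgene row (right) in each library, with circles for replicate 1, squares for replicate 2 and a line at the mean of the 2. The nanog-guide libraries lie at 33.6 and 44.5 TPM for nanog, below all others, and the rfp-guide libraries lie at 366 and 205 TPM for RFP, below all others.

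Across the transcriptome, 583 of 15252 genes tested differed between nanog guides and rfp guides (3.82%) at an adjusted p under 0.05 and a log2 change of at least 1. Of these, 312 were higher with nanog guides (2.05% of genes tested) and 271 were lower (1.78%). The lower genes moved further: their median log2 change was -1.57, against 1.28 for the higher genes, and 81 lower genes but 37 higher genes passed 2 on the log2 scale. Beyond 3 on that scale there were 24 lower and 5 higher genes. Replicates of the groups did not overlap for any of the 583 genes, nor for 5516 of the 15252 genes tested (36.2%). At an unadjusted p under 0.05, 1659 genes tested were higher (10.9%) and 1450 were lower (9.51%). The median log2 change of all genes tested was 0.004.

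The balance of the directions moved with nanog-guide replicate 1 and with how the libraries were scaled. Without that replicate 1327 genes were called, 1083 higher and 244 lower, of which 504 were among the 583, and the median of all genes tested moved to 0.24. When the 5 repeat-like loci were left out and the rest rescaled, 561 genes were higher and 234 lower, and the median of all genes moved to 0.12. With removal of the 11 genes above 10000 TPM instead, 516 were higher and 260 lower. Without nanog-guide replicate 2, 139 genes were higher and 411 lower, with a median of -0.23. Without rfp-guide replicate 1, 382 genes were called, 167 higher and 215 lower. The counts in both directions thus moved over these settings. With weights estimated for each library they were lower still, with 27 genes higher and 100 lower. With no filter on low values 118 were higher and 199 lower, and with a minimum mean of 5 TPM 246 were higher and 199 lower.

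**Figure D2:**
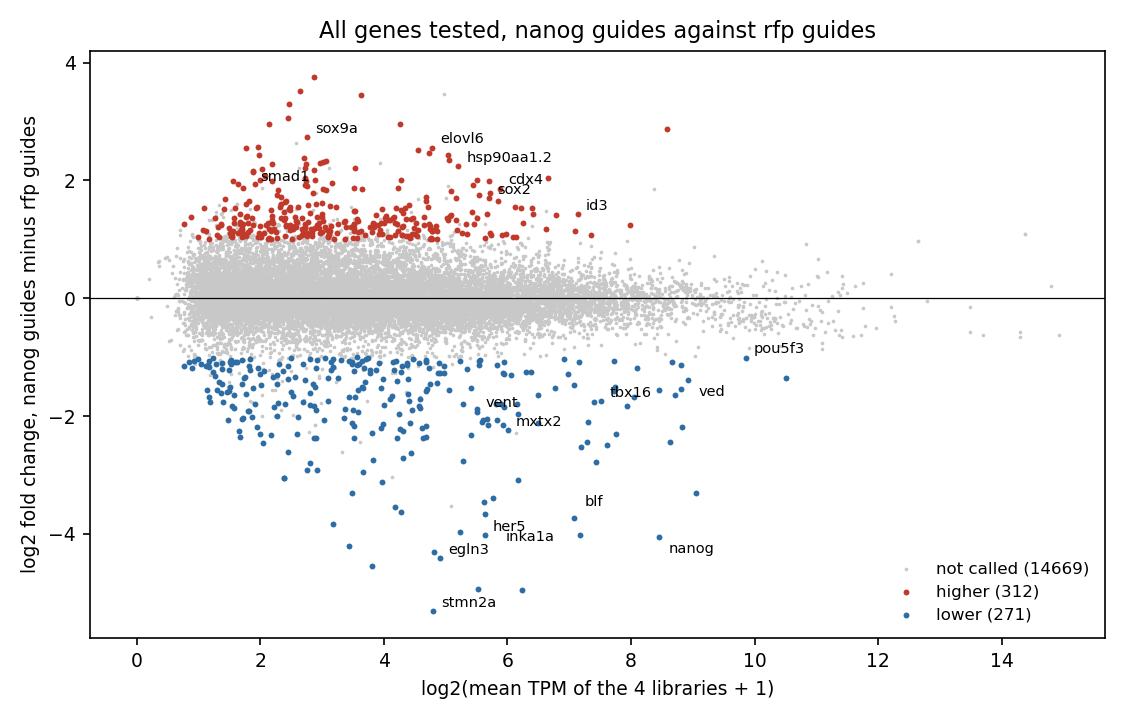
Each point is 1 of 15252 genes tested, with the log2 of its mean TPM + 1 over the 4 libraries on the x axis and its log2 fold change, nanog guides minus rfp guides, on the y axis. The 312 genes called higher are red and the 271 called lower are blue. nanog lies at -4.05 among the abundant genes, and the lower calls reach further from 0 than the higher ones.

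The genes that fell most, among those with a plain symbol and a mean of at least 5 TPM, were led by stmn2a, a regulator of microtubules of the stathmin family. It was at 0.60 and 0.17 TPM in the nanog-guide libraries, against 52.4 and 54.4 TPM in the rfp-guide libraries. It was at 13.2 to 16.9 TPM in the libraries without guides, so that nanog guides lay below and rfp guides above all 4 of these. Its log2 change was -5.31 (SE 0.19, limma adjusted p = 3.3e-09). The next was egln3, a prolyl hydroxylase that marks hypoxia-inducible factors for breakdown, with 1.35 and 2.11 TPM under nanog guides against 61.9 and 51.4 TPM under rfp guides. Here the libraries without guides were at 2.2 to 5.89 TPM, far nearer to the nanog-guide than to the rfp-guide level. Its log2 change was -4.41 (SE 0.24, limma adjusted p = 1.0e-07).

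A group of regulators followed. The gene inka1a, an inhibitor of the kinase Pak4, was at 14.6 and 17.1 TPM in the nanog-guide libraries against 251 and 293 TPM in the rfp-guide libraries, a log2 change of -4.02. The Hairy-related repressor her5, known from endoderm and the midbrain-hindbrain boundary, was at 4.21 and 5.27 TPM against 79.6 and 105 TPM with rfp guides, also a log2 change of -4.02. The secreted BMP and Wnt antagonist sostdc1a was at 2.80 and 4.38 TPM with nanog guides against 71.7 and 67.8 TPM with rfp guides, a log2 change of -3.97. In all 3 genes both nanog-guide libraries lay below and both rfp-guide libraries above the range of the 4 libraries without guides. The zinc finger gene blf, active early in zebrafish development, was at 14.9 and 21.5 TPM with nanog guides against 236 and 267 TPM with rfp guides, a log2 change of -3.73. Here the rfp-guide libraries stood within the range of 188 to 323 TPM of the libraries without guides.

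The other 6 of the 12 genes with the largest falls were arl13a (log2 change -3.63), sncga (-3.54), fkbp7 (-3.08), apoa1a (-2.96), anxa2b (-2.92) and mst1 (-2.91). They encode a small GTPase, a synuclein, an isomerase of the endoplasmic reticulum, apolipoprotein A-I, an annexin and a growth factor-like protein. In fkbp7 the values were 13.5 and 14.9 TPM with nanog guides against 142 and 115 TPM with rfp guides, and in the libraries without guides 108 to 146 TPM. The rfp-guide libraries were within the range without guides for arl13a and fkbp7, below it for anxa2b and above it for mst1. Of the genes without a plain symbol, si:dkey-11o15.10 was at 3.44 and 3.95 TPM with nanog guides against 137 and 154 TPM with rfp guides. The other, si:dkey-159n16.4, was at 1.15 and 2.78 TPM with nanog guides against 106 and 70.09 TPM with rfp guides. Every one of these 14 genes stayed called and lower under all alternatives tried for it.

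The genes that rose most had smaller changes than those that fell most, and some calls rested on 1 library. The fatty acid elongase elovl6 was at 39.5 and 52.4 TPM in the nanog-guide libraries, against 7.46 and 6.36 TPM in the rfp-guide libraries, with 13.3 to 15.3 TPM in the libraries without guides. Its log2 change was 2.56 (SE 0.19, limma adjusted p = 2.7e-06). The forkhead factor foxa2, which marks axial mesoderm and endoderm, was at 30.7 and 47.2 TPM with nanog guides against 6.36 and 5.38 TPM with rfp guides, a log2 change of 2.51 (SE 0.22, limma adjusted p = 9.9e-06). For both genes the nanog-guide libraries were above and the rfp-guide libraries below all 4 libraries without guides. The filopodial myosin myo10 was at 32.8 and 55.6 TPM with nanog guides against 7.41 and 6.41 TPM with rfp guides, a log2 change of 2.47. A septin listed under an altered symbol, matched by its identifier to SEPTIN3, was at 7.87 and 12.1 TPM with nanog guides and 0.75 and 1.43 TPM with rfp guides, a log2 change of 2.39.

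The rest of the 12 genes with the largest rises were sox9a (log2 change 2.74), rab34b (2.34), hsp90aa1.2 (2.25), greb1l (2.21), skilb (2.18), ptgdsb.1 (2.05), angptl4 (2.04) and mid1ip1b (2.01). Among them, skilb encodes a Ski-related corepressor of Smad proteins and angptl4 an inhibitor of lipoprotein lipase. For skilb the rfp-guide libraries, at 1.8 and 1.2 TPM, lay below the 4.33 to 8.98 TPM of the libraries without guides. Its nanog-guide libraries were at 6.39 and 16 TPM. The SoxE factor sox9a was at 1.0 and 22.1 TPM with nanog guides against 0 and 0.04 TPM with rfp guides. It was high in 1 library alone: without nanog-guide replicate 2 its log2 difference was 0.97 (limma adjusted p = 0.10), and without rfp-guide replicate 1 or 2 the adjusted p was 0.17 or 0.14. The chaperone hsp90aa1.2, whose close paralog may share its reads, was at 42.6 and 78.5 TPM with nanog guides against 11.2 and 11.6 TPM with rfp guides, and reached 102 TPM in 1 library of RfxCas13d mRNA alone. Its adjusted p was 0.11 without nanog-guide replicate 2, 0.090 without rfp-guide replicate 1 and 0.076 without rfp-guide replicate 2, all by limma. The lipocalin gene ptgdsb.1, whose paralogs may share its reads, was at 132 and 188 TPM with nanog guides against 49.9 and 28.0 TPM with rfp guides. Of the rows without a plain symbol, RF00003, an Rfam name for U1 spliceosomal RNA, was at 10.9 and 10.1 TPM with nanog guides. It was listed at 0 in both rfp-guide libraries and both uninjected libraries, and was at 3.61 and 5.24 TPM with RfxCas13d mRNA alone. Near-identical genes may share its reads. RF00271 was at 14.7 and 10.6 TPM with nanog guides and was also listed at 0 in both rfp-guide libraries. The libraries without guides held 13.4 to 37.2 TPM of it. Its call was lost with no filter on low values and with weights estimated for each library.

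**Figure D3:**
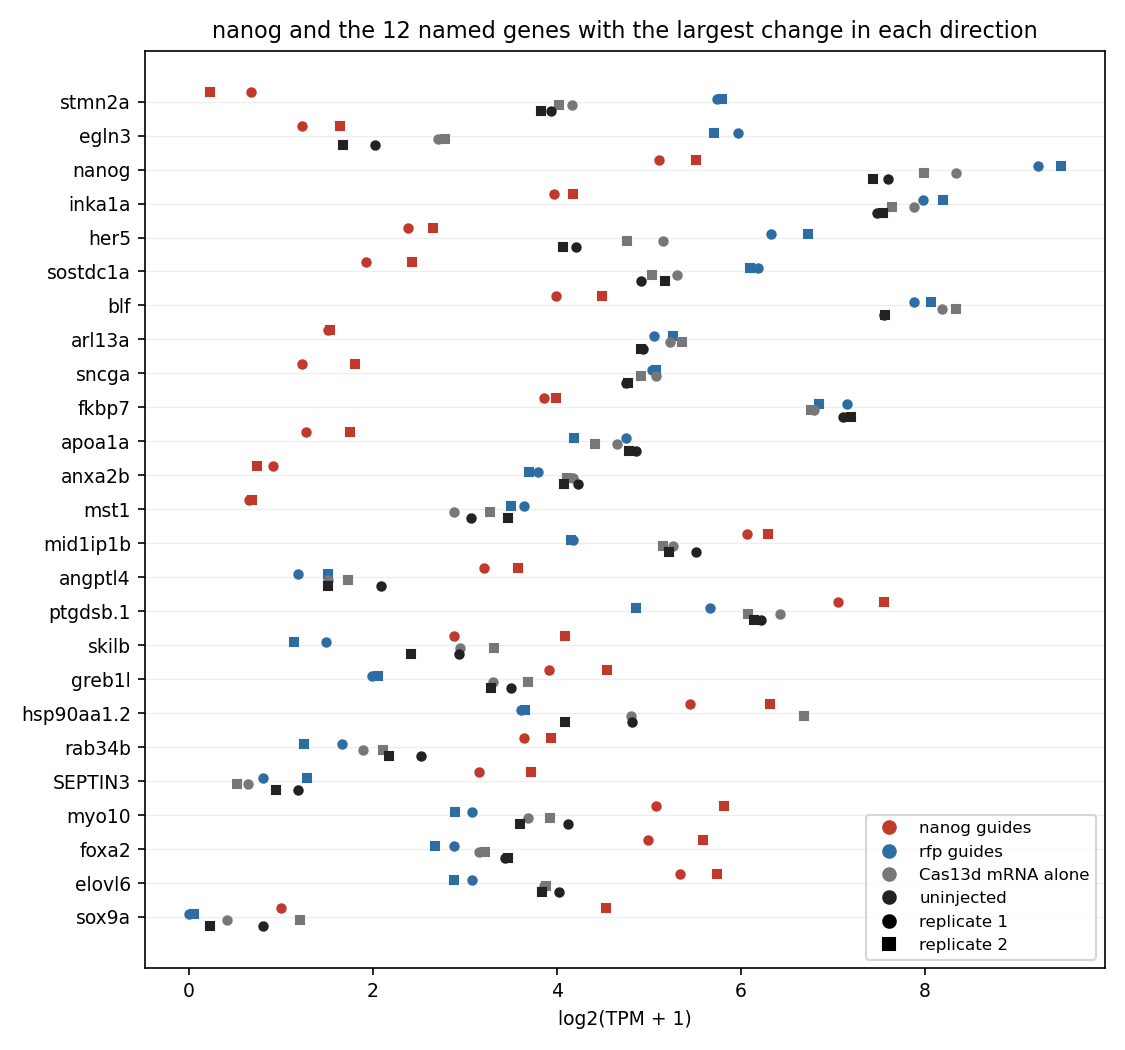
log2(TPM + 1) in the 8 libraries for nanog and for the 12 named genes with the largest change in each direction, with circles for replicate 1, squares for replicate 2 and 1 colour for each group. In the upper 13 rows the nanog-guide libraries (red) lie left of the rfp-guide libraries (blue), and in the lower 12 rows they lie right of them. For sox9a only 1 nanog-guide library, at 22.1 TPM, stands clear of the rest.

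Among 9 genes listed as activators of the zygotic genome or their partners, 3 fell with nanog guides (nanog itself, sox3 and pou5f3) and 1 rose (sox2). The SoxB1 gene sox3 was at 92.1 and 121 TPM in the nanog-guide libraries against 325 and 307 TPM in the rfp-guide libraries, a log2 change of -1.57. Its rfp-guide libraries were themselves below the 351 to 513 TPM of the libraries without guides. The POU factor pou5f3, the partner of Nanog, was at 504 and 742 TPM with nanog guides against 1255 and 1205 TPM with rfp guides, a log2 change of -1.01. This change lay close to the fold minimum: without nanog-guide replicate 1 the log2 difference was -0.73 and without rfp-guide replicate 1 it was -0.98. The call of pou5f3 was lost in 7 of 16 alternatives, among them no filter on low values and weights estimated for each library. Over the alternatives its limma adjusted p reached 0.13. By contrast sox2 was at 62.0 and 95.7 TPM with nanog guides against 28.5 and 18.5 TPM with rfp guides, a log2 change of 1.70, and 45.9 to 62.7 TPM in the libraries without guides.

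The other 5 genes of this list did not pass. For klf17, a Krüppel-like factor of the early embryo, the log2 difference was -0.68, for sox19a -0.46, for the RNA-binding factor ybx1 -0.20, for the chromatin factor ash2l 0.30 and for sox19b 0.88. The maternal SoxB1 gene sox19b was at 49.7 and 82.2 TPM with nanog guides against 32.0 and 37.0 TPM with rfp guides. The replicates of sox19b did not overlap, and its adjusted p of 0.028 (limma) was under the threshold, but the change was under the fold minimum. The median log2 difference of the 9 genes, the target nanog included, was -0.46, beside 0.004 for all genes tested.

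First-wave zygotic genes, which the embryo transcribes at the onset of its own transcription, held the most calls of the 26 lists. Of 48 tested, 15 fell with nanog guides, 0 rose and 33 did not pass, a share of 31.2% lower beside 1.78% of all genes. The list was chosen with earlier results of these data known, so this share carries no test. The 15 were her5, blf, apoa1b, mxtx2, vent, tbx16, vox, ndr1, sox3, mych, tbx16l, p4ha1b, ved, apoc1 and pou5f3. The median over all 48 members was -0.43, and 36 of 48 lay below 0. At an unadjusted p under 0.05, 24 were lower and 4 higher, beside 9.51% and 10.9% of all genes tested. Leaving out a library gave 13 to 18 lower and 0 to 3 higher genes. Embryos with fewer cells that express such a gene and cells with less of its RNA cannot be told apart in whole-embryo libraries.

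The Myc-related mych was at 153 and 205 TPM in the nanog-guide libraries against 518 and 530 TPM in the rfp-guide libraries, a log2 change of -1.56 (SE 0.15, limma adjusted p = 3.1e-05). The apolipoprotein gene apoa1b was at 4.93 and 4.88 TPM with nanog guides against 44.3 and 28.6 TPM with rfp guides, a log2 change of -2.63. The apolipoprotein apoc1 was at 227 and 287 TPM with nanog guides against 664 and 442 TPM with rfp guides, and 775 to 1092 TPM in the libraries without guides. Its log2 change of -1.08 lost the call without nanog-guide replicate 1 (-0.91, limma adjusted p = 0.023) and without rfp-guide replicate 1 (-0.79, limma adjusted p = 0.073). The collagen prolyl hydroxylase p4ha1b differed from the rest in position: it was at 11.2 and 15.7 TPM with nanog guides, within the 7.61 to 16.1 TPM of the libraries without guides, against 37.2 and 39.6 TPM with rfp guides. Among abundant members that did not pass, asb11 had a log2 difference of -0.97, apoeb -0.42, zic2b -0.18 and the claudin cldne 0.21.

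The ventral repressors are homeobox genes that keep dorsal genes off on the ventral side. Of 4 tested, 3 fell (vent, vox and ved), which is 75% of a very small list, beside 1.78% of all genes tested. The median of the 4 was -1.53. The level of vox was 116 and 133 TPM in the nanog-guide libraries against 424 and 379 TPM in the rfp-guide libraries, a log2 change of -1.68 (SE 0.14, limma adjusted p = 6.4e-06). The level of ved was 252 and 286 TPM with nanog guides against 780 and 630 TPM with rfp guides, a log2 change of -1.38. The level of vent was 16.2 and 19.9 TPM with nanog guides against 75.3 and 67.1 TPM with rfp guides, a log2 change of -1.93. In each of the 3 the nanog-guide libraries were below all 4 libraries without guides. The fourth gene, eve1, overlapped between the groups, with 66.5 and 87.2 TPM against 104 and 64.6 TPM with rfp guides. The calls of vox and ved held in every alternative. That of vent was lost with estimated array weights, which gave each nanog-guide library a weight of 0.182 (log2 change -1.93, limma adjusted p = 0.16).

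Among genes of the yolk syncytial layer and endoderm, 3 of 16 tested fell (her5, mxtx2 and cxcr4a), 1 rose (foxa2) and the median was -0.76. The homeobox gene mxtx2, which acts downstream of Nanog in the yolk syncytial layer, was at 15.1 and 29.5 TPM in the nanog-guide libraries. It was at 110 and 98.6 TPM in the rfp-guide libraries and at 33.3 to 45.2 TPM in the libraries without guides, so the rfp-guide libraries were again the highest. Its log2 change was -2.24 (SE 0.26, limma adjusted p = 1.2e-04). The chemokine receptor cxcr4a, expressed in zebrafish endoderm, was at 50.4 and 67.3 TPM with nanog guides against 270 and 240 TPM with rfp guides, a log2 change of -2.11. Of the abundant members that did not pass, gata6 had a log2 difference of -0.79, marcksl1b -0.39, mixl1 -0.25 and foxa3 -0.08. The median of the list was -0.40 without nanog-guide replicate 1 and -1.11 without nanog-guide replicate 2, beside 0.24 and -0.23 for all genes tested.

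Nodal ligands induce mesoderm and endoderm at the embryo margin, and Lefty proteins restrain them. Of 22 genes of the pathway, 3 fell and 0 rose, with a median of 0.12. At an unadjusted p under 0.05, 4 were lower and 4 higher, beside 9.51% and 10.9% of all genes tested. The ligand gene ndr1 was at 7.37 and 7.36 TPM in the nanog-guide libraries against 27.5 and 23.6 TPM in the rfp-guide libraries, a log2 change of -1.67 (SE 0.18, limma adjusted p = 7.9e-05). The actin bundler fscn1a, a Nodal target in zebrafish, was at 162 and 247 TPM with nanog guides against 679 and 578 TPM with rfp guides, a log2 change of -1.64. The inhibitor lft2 was at 25.4 and 34.3 TPM with nanog guides against 72.6 and 53 TPM with rfp guides, a log2 change of -1.05. The call of lft2 was lost without nanog-guide replicate 1 (-0.84, limma adjusted p = 0.019) and without rfp-guide replicate 1 (-0.82, limma adjusted p = 0.11). The maternal ligand gdf3, the coreceptor tdgf1, the receptor acvr1ba and the Smad partner foxh1 did not pass, at log2 differences of -0.32, 0.03, 0.27 and -0.37. Without nanog-guide replicate 1 the median of the list was 0.45, beside 0.24 for all genes tested.

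BMP signalling sets ventral fates and was split in direction: of 34 genes, 4 fell (msx3, admp, szl and gata3), 5 rose (smad1, cdx4, id2a, id3 and tfap2a) and the median was 0.12. Apart from admp, no ligand or receptor of the list passed, and both secreted members that fell, admp and szl, are known as parts of the system that shapes the BMP gradient. The organizer ligand admp was at 9.37 and 14.8 TPM in the nanog-guide libraries against 40.1 and 34.2 TPM in the rfp-guide libraries, a log2 change of -1.57. The tolloid inhibitor szl was at 4.87 and 8.80 TPM with nanog guides, 29.9 and 14.3 TPM with rfp guides and 43.8 to 63.4 TPM in the libraries without guides. Its call was lost without rfp-guide replicate 1 (log2 difference -1.01, limma adjusted p = 0.13), as was that of the homeobox gene msx3 (-1.49, limma adjusted p = 0.068). The transcription factor gata3, a ventral and surface-layer gene, had a log2 change of -1.13, and -0.94 without nanog-guide replicate 1 (limma adjusted p = 0.0016).

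Of the BMP genes that rose, the signal transducer smad1 was at 10.6 and 12.6 TPM in the nanog-guide libraries against 2.34 and 2.62 TPM in the rfp-guide libraries, a log2 change of 1.86 (SE 0.20, limma adjusted p = 7.2e-05). The Id genes are direct targets of BMP signalling. The level of id3 was 190 and 219 TPM with nanog guides against 85.3 and 66.2 TPM with rfp guides, a log2 change of 1.43. The level of id2a was 77.0 and 95.0 TPM with nanog guides against 27.6 and 25.8 TPM with rfp guides, a log2 change of 1.64. In contrast id1, the most abundant of the list, did not pass, with 1679 and 2021 TPM against 1660 and 1540 TPM with rfp guides. The epidermal and neural crest factor tfap2a had a log2 change of 1.37. The inhibitor bambia had a log2 difference of -0.95, just under the fold minimum, and chrd, the dorsal BMP antagonist, one of 0.18. The calls of smad1, id2a and id3 held in every alternative. Those of cdx4 and tfap2a were lost with estimated array weights, and that of cdx4 also with no filter on low values.

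In the organizer and axial mesoderm, 3 of 19 genes rose (foxa2, tbxtb and foxb1a) and 1 fell (admp), with a median of 0.22. The T-box gene tbxtb was at 3.12 and 6.92 TPM in the nanog-guide libraries against 0.70 and 0.30 TPM in the rfp-guide libraries, a log2 change of 1.94. The forkhead gene foxb1a was at 18.3 and 39.6 TPM with nanog guides against 7.40 and 5.96 TPM with rfp guides, a log2 change of 1.87. The abundant genes tbxta, noto, chrd and foxa3 overlapped between the groups, with log2 differences of 0.53, -0.05, 0.18 and -0.08. The organizer gene gsc did not pass either, at 63.8 and 88.5 TPM with nanog guides against 116 and 94.9 TPM with rfp guides. Of the remaining gastrula markers, bmp2b, sox32 and foxi1 had log2 differences of -0.43, -0.56 and 0.96 and did not pass, and otx2b was too low to be tested.

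Of 22 genes of the mesoderm and presomitic mesoderm, 5 fell (her11, drl, tbx16, tbx16l and snai1b) and 0 rose, while the median was 0.11. At an unadjusted p under 0.05, 6 were lower and 6 higher, beside 9.51% and 10.9% of all genes tested. The T-box gene tbx16, needed in zebrafish for the somites of the trunk, was at 74.3 and 93.2 TPM in the nanog-guide libraries. It was at 284 and 279 TPM in the rfp-guide libraries and 207 to 298 TPM in the libraries without guides, so that the nanog-guide libraries alone stood apart. Its log2 change was -1.75 (SE 0.15, limma adjusted p = 9.9e-06). The zinc finger gene drl was at 14.9 and 29.2 TPM with nanog guides against 114 and 81.8 TPM with rfp guides, a log2 change of -2.16. The Hairy-related her11, a relative of her5, was at 4.42 and 5.60 TPM with nanog guides against 30.4 and 29.5 TPM with rfp guides, a log2 change of -2.37. Among the abundant members, apela, snai1a and aplnra did not pass, at 0.48, -0.33 and 0.13. The calls of her11 and tbx16 held in every alternative. Those of drl, tbx16l and snai1b were lost with estimated array weights, and that of snai1b also when the 4 libraries were fitted alone.

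The FGF list, the Wnt list and the list of retinoic acid, cdx and hox genes held calls in both directions. Of 23 FGF genes, 2 rose (spry1 and fgf24) and 1 fell (ier2b), 13% of the list beside 3.82% of all genes tested, with a median of 0.17. The ligand fgf24 was at 13.9 and 16.3 TPM in the nanog-guide libraries against 6.04 and 5.38 TPM in the rfp-guide libraries, a log2 change of 1.26. For spry1 the rfp-guide libraries, at 4.77 and 2.68 TPM, lay below the 5.91 to 14.8 TPM of the libraries without guides. Its nanog-guide libraries were at 9.21 and 16.9 TPM. The feedback inhibitor spry1 (log2 change 1.55) lost its call without nanog-guide replicate 2 (1.15, limma adjusted p = 0.069) and without rfp-guide replicate 2 (1.23, limma adjusted p = 0.12). Of 34 Wnt genes, 4 rose (cdx1a, cdx4, fzd9b and wnt4a) and 1 fell, the secreted inhibitor notum1b, 14.7% of the list. The values of notum1b were 0.03 and 0.17 TPM with nanog guides against 4.58 and 3.89 TPM with rfp guides, and 1.0 to 1.44 TPM in the libraries without guides. For fzd9b the rfp-guide libraries, at 9.32 and 6.74 TPM, lay below the 16.1 to 21.6 TPM of the libraries without guides. Its nanog-guide libraries were at 17.9 and 26.6 TPM. The ligand wnt4a lost its call without nanog-guide replicate 1 (0.94, limma adjusted p = 0.019), rfp-guide replicate 1 (1.02, limma adjusted p = 0.090) or rfp-guide replicate 2 (1.1, limma adjusted p = 0.064). The median of the Wnt list was 0.18, and 0.45 without nanog-guide replicate 1, beside 0.004 and 0.24 for all genes tested. The beta-catenin genes ctnnb1 and ctnnb2 did not pass, at log2 differences of 0.25 and -0.06.

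Caudal homeobox genes pattern the posterior body. The level of cdx4 was 77.1 and 103 TPM in the nanog-guide libraries against 37.0 and 15.2 TPM in the rfp-guide libraries, a log2 change of 1.86 (SE 0.29, limma adjusted p = 0.0018). The level of cdx1a was 3.11 and 4.36 TPM with nanog guides against 0.25 and 0.11 TPM with rfp guides, a log2 change of 1.99. In both genes the nanog-guide libraries were above and the rfp-guide libraries below all libraries without guides. In the list of retinoic acid, cdx and hox genes 11 were tested. Of these, 2 fell, the synthesizing enzymes aldh1a2 and rdh10a, and 3 rose, cdx1a, cdx4 and the binding protein crabp2b. These were 45.5% of the list, beside 3.82% of all genes tested, and the median was -0.07. The dehydrogenase rdh10a was at 8.25 and 12.2 TPM with nanog guides against 41.8 and 29.4 TPM with rfp guides, a log2 change of -1.71. The calls of aldh1a2 (-0.90 without rfp-guide replicate 1, limma adjusted p = 0.13) and crabp2b (1.26 without rfp-guide replicate 2, limma adjusted p = 0.059) each rested on 1 library. Both genes were lower with rfp guides than in every library without guides. The degrading enzyme cyp26a1 had a log2 difference of -0.84.

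Of 22 genes of the anterior neural plate, 4 fell (her5, sox3, gbx1 and sox11b) and 1 rose (sox2), with a median of 0.06. The SoxC gene sox11b was at 128 and 211 TPM in the nanog-guide libraries against 360 and 389 TPM in the rfp-guide libraries, a log2 change of -1.18, and -0.82 without nanog-guide replicate 1 (limma adjusted p = 0.0044). The homeobox gene gbx1 was at 1.05 and 3.46 TPM with nanog guides against 6.74 and 5.47 TPM with rfp guides, and lost its call without nanog-guide replicate 1 (limma adjusted p = 0.053), rfp-guide replicate 1 (0.20) or rfp-guide replicate 2 (0.085). Without nanog-guide replicate 1 the median of the list was 0.27, beside 0.24 for all genes tested.

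The enveloping layer and epidermis list had 2 rises (agr1 and tfap2a) and 1 fall (gata3) among 36 genes, with a median of 0.02. The gene agr1, of the protein disulfide isomerase family, was at 46.6 and 57.9 TPM in the nanog-guide libraries against 14.0 and 13.9 TPM in the rfp-guide libraries, a log2 change of 1.82. Its level was 31.5 to 38.9 TPM in the libraries without guides, between both guide groups. The most abundant keratins, krt18a.1, krt8 and krt4, overlapped between the groups, with log2 differences of 0.11, 0.06 and -0.08. The less abundant krt5, krt92 and krt17 were lower with nanog guides without overlap of replicates, at -0.56, -0.61 and -0.61, but did not pass. Over all genes tested, replicates did not overlap in 36.2%. The keratins cyt1 and cyt1l overlapped, at -0.11 and -0.26. Among other members that did not pass, klf2b, grhl1 and foxi1 were higher, at 0.909, 0.895 and 0.964. In the same way klf2a and krt91 were lower, at -0.966 and -0.921. At an unadjusted p under 0.05, 10 genes of the list were lower and 7 higher, beside 9.51% and 10.9% of all genes tested. The median of this list was 0.23 without nanog-guide replicate 1 and -0.24 without nanog-guide replicate 2, beside 0.24 and -0.23 for all genes tested.

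Of the lists described so far, the share of tested members called was 44.4% for the genome activators. That list includes nanog, the target of the guides, whose fall was set by the design. The share was 25% for the yolk syncytial layer and endoderm, 13.6% for Nodal and 26.5% for BMP. It was 21.1% for the organizer, 22.7% each for mesoderm and anterior neural plate and 8.33% for the enveloping layer and epidermis. All stand beside 3.82% of all genes tested. The lists were chosen with earlier results of these data known, so their shares carry no test. The lists share members, so their shares are not independent. The gene cdx4 counts in the BMP and Wnt lists and in that of retinoic acid, cdx and hox genes. Likewise her5, sox3, admp, foxa2, gata3, tfap2a and cdx1a are each counted in more than 1 list. The same holds for vent, vox, ved, mxtx2, tbx16, tbx16l, ndr1 and pou5f3, each a first-wave zygotic call and also a call of another list. All calls of the ventral repressor list are thus first-wave zygotic calls as well.

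**Figure D4:**
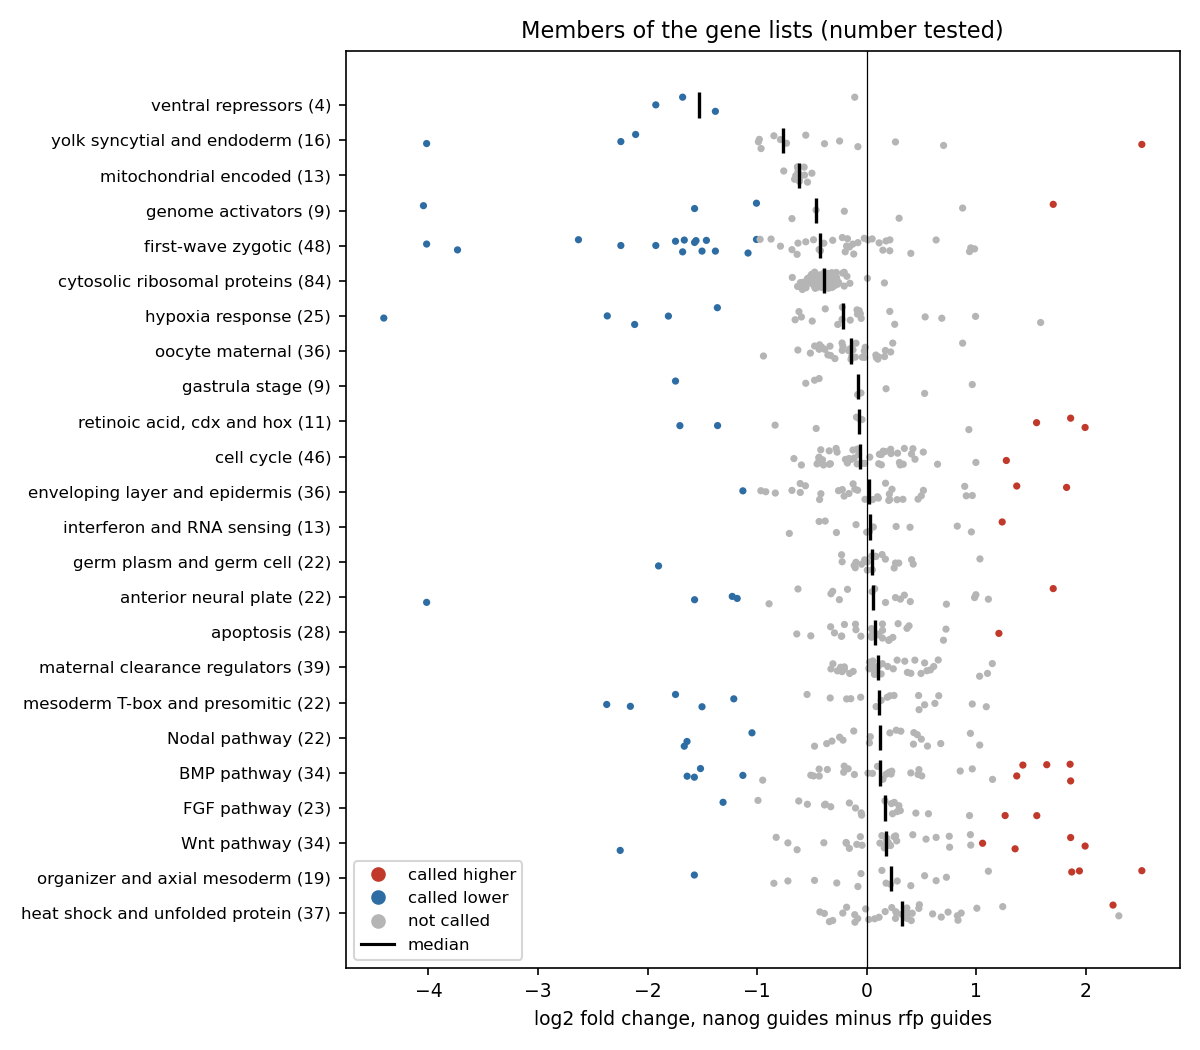
log2 fold change, nanog guides minus rfp guides, of every tested member of 24 gene lists with at least 4 tested genes, with a black line at the median of each list and the number tested in brackets. The ventral repressors have the lowest median, at -1.53, and the first-wave zygotic list has 15 blue points and no red one. Vertical scatter within a row only separates the points.

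Of 36 oocyte and maternal genes tested, 0 were called by limma in either direction, and the median was -0.14. With 3.82% of all genes tested called, a list of this size with no call is near the background. At an unadjusted p under 0.05, 6 were lower and 1 higher, beside 9.51% and 10.9% of all genes tested. Beside RfxCas13d mRNA alone, the medians of the same list were 0.51 for nanog guides and 0.56 for rfp guides, contrasts that share the RfxCas13d libraries. The cyclin gene ccnb1 was at 1453 and 1869 TPM in the nanog-guide libraries against 1694 and 1694 TPM in the rfp-guide libraries. The oocyte linker histone h1m was at 304 and 404 TPM with nanog guides against 377 and 376 TPM with rfp guides. Of 39 regulators of maternal RNA clearance, 0 were called by limma, with a median of 0.10. At an unadjusted p under 0.05, 8 of them were higher and 0 lower, beside 10.9% and 9.51% of all genes tested. Without nanog-guide replicate 1 their median was 0.40, beside 0.24 for all genes tested. Of 22 germ plasm and germ cell genes, 1 fell, a share of 4.55% that is near the 3.82% of all genes tested. This was the chemokine cxcl12a, which guides migrating germ cells and is made by somatic tissue, was at 7.47 and 9.17 TPM with nanog guides against 35.3 and 32.0 TPM with rfp guides. The germ cell helicase ddx4 overlapped, with 64.1 and 101 TPM against 86.9 and 74.1 TPM with rfp guides.

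The lists for the cell cycle, apoptosis, heat shock and interferon held 1 call each, which is 2.17%, 3.57%, 2.7% and 7.69% of the members tested. As shares of calls these are close to the 3.82% of all genes tested and by themselves are no result about the lists. Of 46 cell cycle genes cdkn1a alone was called, and the median was -0.06. This cell cycle inhibitor was at 18.3 and 23.7 TPM in the nanog-guide libraries, 7.27 and 8.83 TPM in the rfp-guide libraries and 1.86 to 8.07 TPM in the libraries without guides. Its log2 change was 1.27 (SE 0.33, limma adjusted p = 0.042), and its adjusted p was 0.12 without nanog-guide replicate 2, 0.22 without rfp-guide replicate 1 and 0.10 without rfp-guide replicate 2. Of 28 apoptosis genes bik alone was called, with a log2 change of 1.21 and a list median of 0.08. The call of bik was lost without nanog-guide replicate 1 (limma adjusted p = 0.052), nanog-guide replicate 2 (0.097) or rfp-guide replicate 1 (0.33).

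Of 37 heat shock and unfolded protein genes, 27 lay above 0, with a median of 0.32. At an unadjusted p under 0.05, 12 were higher and 2 lower, beside 10.9% and 9.51% of all genes tested. The median was 0.58 without nanog-guide replicate 1 and 0.06 without nanog-guide replicate 2. By the rule for calls 1 gene passed (hsp90aa1.2). Its call was lost without nanog-guide replicate 2 and without either rfp-guide replicate. The median of all genes tested was 0.24 without nanog-guide replicate 1 and -0.23 without nanog-guide replicate 2. The constitutive chaperone hspa8 did not pass, at 4210 and 4367 TPM in the nanog-guide libraries against 6009 and 5226 TPM in the rfp-guide libraries. Of 13 genes of interferon and RNA sensing, 1 rose (mxe, a log2 change of 1.24), and it lost its call without rfp-guide replicate 1 (1.05, limma adjusted p = 0.066). The values of mxe were 2.33 and 2.92 TPM with nanog guides against 0.35 and 0.74 TPM with rfp guides. The ubiquitin-like isg15 did not pass, with 45.5 and 63.7 TPM against 29.3 and 30.6 TPM with rfp guides.

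Of 25 genes of the hypoxia list, 5 fell (egln3, igfbp1a, ankrd37, pfkfb3 and ca9) and 0 rose. Thus 20% of the list was lower, beside 1.78% of all genes tested. The median was -0.22, but 0 without nanog-guide replicate 1 and -0.42 without nanog-guide replicate 2. At an unadjusted p under 0.05, 9 were lower and 4 higher, beside 9.51% and 10.9% of all genes tested. The growth factor binding protein igfbp1a was at 0.82 and 2.04 TPM in the nanog-guide libraries against 11 and 11.3 TPM in the rfp-guide libraries, and 0.44 to 1.52 TPM in the libraries without guides. The glycolytic regulator pfkfb3 was at 5.56 and 6.76 TPM with nanog guides against 24.3 and 23.8 TPM with rfp guides, and 5.23 to 7.06 TPM in the libraries without guides. The ankyrin repeat gene ankrd37 was at 5.07 and 9.40 TPM with nanog guides against 38.4 and 29.2 TPM with rfp guides, and 8.06 to 20.4 TPM in the libraries without guides. For egln3, igfbp1a, ankrd37 and pfkfb3 the rfp-guide libraries were thus above all 6 others, and the nanog-guide libraries were near to or below those without guides. The carbonic anhydrase ca9 had another order, at 7.75 and 14.2 TPM with nanog guides, 34.5 and 23.8 TPM with rfp guides and 31.4 to 83.4 TPM without guides. Its call was lost without nanog-guide replicate 1 (-0.96, limma adjusted p = 0.097) and without rfp-guide replicate 1 (-1.11, limma adjusted p = 0.20). Over all genes tested the median was 0.24 without nanog-guide replicate 1 and -0.23 without nanog-guide replicate 2.

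No cytosolic ribosomal protein gene and no mitochondrial transcript was called. Of 84 ribosomal protein genes 0 were called by limma and 66 were lower at an unadjusted p under 0.05, as were 9.51% of all genes tested. In all, 82 of 84 lay below 0, with a median of -0.39, and of -0.21 after quantile normalization. All 13 mitochondrial transcripts lay below 0 and were lower at an unadjusted p under 0.05, with a median of -0.62, and 8 of 13 passed an adjusted p of 0.05 (limma) without a fold minimum. The most abundant, mt-co1, was at 24370 and 24283 TPM in the nanog-guide libraries against 38959 and 36463 TPM in the rfp-guide libraries. In the libraries without guides mt-co1 was at 18548 to 29644 TPM, so for it the rfp-guide libraries were the ones outside the range without guides. The ribosomal protein list had another order. It summed to 72163 and 76939 TPM with nanog guides, below the 78638 to 121050 TPM of the libraries without guides. With rfp guides it summed to 104240 and 93055 TPM, within that range.

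Because the contrast joins the differences of both guide groups, each called gene was set against the range of the 4 libraries without guides, a description chosen after the data had been seen. Of the 271 lower genes, both nanog-guide libraries lay below that range in 235 (86.7%) and both rfp-guide libraries lay above it in 126 (46.5%). Both held together in 93 (34.3%), as for nanog, stmn2a and vox. In 74 (27.3%) the nanog-guide libraries lay below the range and the rfp-guide libraries were not together above, within or below it. In 45 (16.6%) the nanog-guide libraries lay below while the rfp-guide libraries lay within the range, as for blf, tbx16 and pou5f3. Over all genes tested these combinations held in 3.83% and 2.1%. In 17 (6.27%) the nanog-guide libraries lay within the range and the rfp-guide libraries above it, as for pfkfb3 and p4ha1b. This combination held in 1.49% of all genes tested. Over all genes tested the nanog-guide libraries lay below the range in 12.9% and the rfp-guide libraries above it in 22.7%, and both held in 1.09%.

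Among the 312 higher genes the order was turned round. Both nanog-guide libraries lay above the range without guides in 134 (42.9%), while both rfp-guide libraries lay below it in 213 (68.3%). Over all genes tested these shares were 14.5% and 22.5%. The combination with the most genes, 110 (35.3%), had the nanog-guide libraries not together above, within or below the range and both rfp-guide libraries below it, beside 14.4% of all genes tested. Both held in 64 (20.5%), as for foxa2, elovl6 and smad1, beside 0.616% of all genes tested. In 40 (12.8%) the nanog-guide libraries lay above the range and the rfp-guide libraries were not together above, within or below it. In 37 (11.9%) the nanog-guide libraries lay within the range and the rfp-guide libraries below it. In 25 (8.01%) the nanog-guide libraries lay above the range and the rfp-guide libraries within it. Over all genes tested these combinations held in 3.42%, 1.67% and 1.16%. The genes were selected by the difference of the same nanog-guide and rfp-guide libraries, so these shares carry no test.

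**Figure D5:**
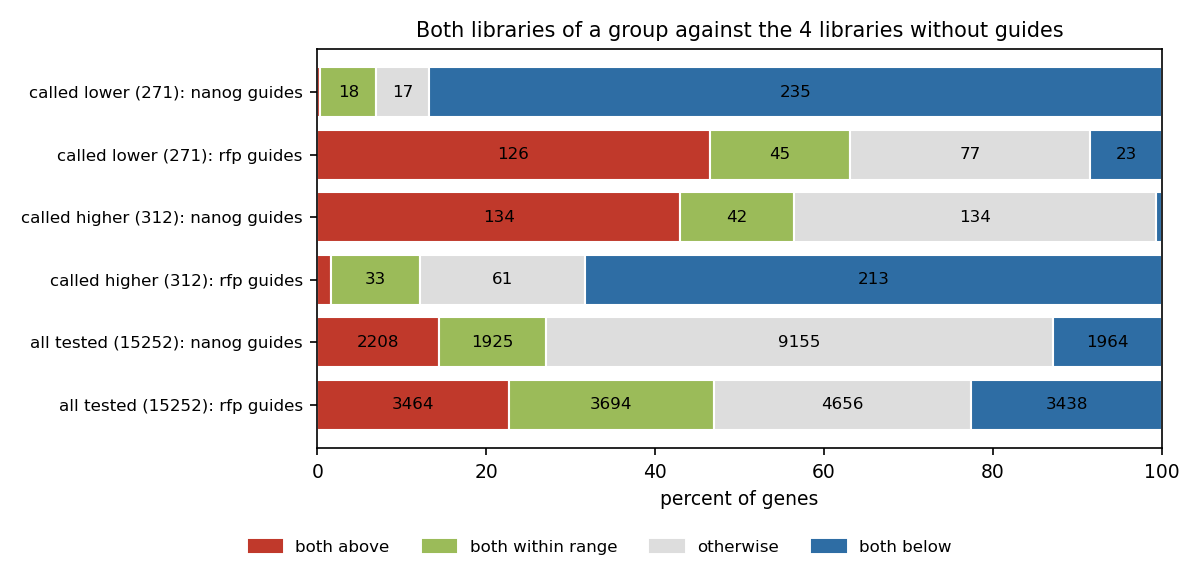
Percent of genes (x axis) in which both libraries of a guide group lie above, within or below the range of the 4 libraries without guides, or in none of these positions, with the number of genes in each bar. Among lower calls 235 of 271 have both nanog-guide libraries below the range, and among higher calls 213 of 312 have both rfp-guide libraries below it.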

How the data were processed

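Poly(A)-enriched stranded libraries of whole zebrafish embryos were read as single reads of 75 bp, per the labels' protocols. The authors deposited 1 table of TPM values, titled RSEM. The submitters' processing notes name bcl2fastq 2.18, STAR 2.6.1c, RSEM and the build danRer11; the annotation release, settings and use of strand are not given in the sources used here. TPM scales each library to 1000000 and keeps no depth, so no counting interval was possible. Antisense, overlapping or near-identical genes may share reads.

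From TPM, log2(TPM + 1) was computed and fitted with limma 3.58.1 in R 4.3.3 (1 term per group, eBayes with trend, two-sided, Benjamini-Hochberg adjustment). Fold changes on this scale understate those of low genes. The fit took 12 libraries in 6 groups of the same injection series (6 residual and 7.13 prior degrees of freedom), left out the RFP row and kept 15252 of 32520 genes with a mean of at least 1 TPM. Calls needed an adjusted p under 0.05 and a log2 change of 1 or more. SE is the moderated standard error, from 1 spread per gene shared over the 6 groups. The nanog-guide replicates differed by a median of 0.502, against 0.136 to 0.178 in the other groups. SE and adjusted p may therefore understate the spread of the nanog-guide group. The procedure was also run on simulated data with the same spread of a gene in all groups and no shift of whole libraries. The larger spread and the shift between the nanog-guide replicates were therefore not covered by it.

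Named were nanog, the 12 highest and 12 lowest called genes with a plain symbol, a mean of at least 5 TPM over the 4 libraries and no overlap of replicates, 2 each without a plain symbol, and called list members with up to 4 abundant others. The 26 gene lists came from general knowledge. The comparison and the lists were chosen with earlier results of these data known. Alternatives were pseudocount, filter, scaling, samples fitted, weights, trend, replicate block, fold minimum and leaving out each library; leaving out 5 repeat-like loci was chosen after seeing the data. Promoter sequences and the guides' sequences were not analysed here. One gene list and a few of its members are not reported here.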

Additional observations from a re-analysis of the deposited data

How the results depend on the processing

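The count of 583 called genes was 127 with estimated array weights (27 higher, 100 lower; each nanog-guide library weighed 0.182) and 317 with no filter on low values (118 higher, 199 lower). It lay between 382 and 1327 when 1 library was left out: 1327 without nanog-guide replicate 1, 550 without nanog-guide replicate 2, 382 without rfp-guide replicate 1 and 426 without rfp-guide replicate 2. A group left with 1 library was assumed to vary like the others. The remaining settings gave 445 to 867 genes. Of the 583, 434 were shared when the 4 libraries were fitted alone. The 61 called list genes became 28 with array weights, 102 with no fold minimum and 51 to 90 without 1 library. For nanog the log2 change was -4.25 to -3.85 over all alternatives. Of 83 other genes followed, 43 kept direction and call in every alternative and 0 changed direction. With array weights 39 of the 83 lost their call, among them vent, drl, sox2, cdx4, foxb1a and rdh10a. Replicate numbers are shared between groups, but the deviations of nanog-guide and rfp-guide replicate 1 correlated at -0.146 over genes and nothing in the labels pairs them. A replicate block called 548 genes (282 higher), 536 of them among the 583, and 59 list genes. The cause of these differences was not tested. The search for motifs in promoters was not run. Depth is unknown, which limits the precision of low genes.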
